A study of Mus musculus with 8 samples.

Results

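The 10 genes described here encode small proteins that hold back cell division: Gadd45a, Gadd45b and Gadd45g, Btg1, Btg2 and Btg3, and the cyclin-dependent kinase (CDK) inhibitors Cdkn1a, Cdkn1b, Cdkn2c and Cdkn2d. They were taken by symbol from the 55487 genes of the counts table, each of the 10 symbols matched 1 row, and all 10 had enough reads to be tested. RNA came from germ cells sorted by flow cytometry from the testes of C57BL/6 mouse fetuses homozygous for Oct4-eGFP, a reporter that makes cells with Oct4 (Pou5f1) promoter activity fluoresce green. The 4 libraries labelled KO came from Rhox10-null fetuses, which lack a functional copy of an X-linked homeobox gene of germ cells, and the 4 labelled WT from littermate controls with the same reporter. The fetal age and the number of animals behind a library are not given in the sources used here, so p-values here speak only of the spread among libraries, part of which may be technical.

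Cells leave the division cycle when CDKs, the kinases that drive it, are held inactive. Cdkn1a (p21) and Cdkn1b (p27) belong to the Cip/Kip inhibitors, which bind cyclin and CDK complexes, while Cdkn2c (p18) and Cdkn2d (p19) belong to the INK4 inhibitors, which bind CDK4 and CDK6. Gadd45 proteins are stress sensors that bind the replication clamp PCNA, the mitotic kinase CDK1 and the kinase MAP3K4 upstream of p38 and JNK, and BTG proteins slow growth and recruit the CCR4-NOT complex, which shortens the poly(A) tails of messenger RNAs. Male germ cells of the fetal mouse stop dividing at about the time they become prospermatogonia and rest until after birth. Somatic cells of the testis express many of the same genes.

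The libraries held 16346977 to 20311338 counts, and the levels below are CPM, counts scaled to a common library size, with TMM (edgeR's trimmed-mean scaling) applied first. Counts of Rhox10 itself were 17 to 25 for WT and 10 to 22 for KO, with a log2 fold change of -0.28 (standard error 0.32, adjusted p = 0.767), so the counts do not check the genotype labels. The defining germ-cell markers were all read, but they were far from the most abundant cell-type markers. In the libraries labelled WT the level per kilobase of exon was 14.8 CPM for Ddx4, the VASA helicase gene of germ cells, and 451 for Col1a1, which encodes a collagen of interstitial cells. It was 152 for Cyp11a1, a steroid enzyme of Leydig cells, and 84.5 for Amh, the hormone of Sertoli cells. Which cells the members' RNA came from was not tested, and in such bulk libraries fewer cells of a type and less RNA per cell cannot be told apart.

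Of the 10 genes, 3 fell with the KO label (Gadd45b, Gadd45g and Btg1), 1 rose (Cdkn1a), and 6 did not pass an adjusted p under 0.05 in edgeR's quasi-likelihood test. Over all 23190 genes tested, 2.8% were called lower and 2.35% higher, 5.14% in all; with library totals in place of TMM 426 genes were called higher and 836 lower, against 544 and 649, and with upper-quartile scaling 633 and 555, so the balance of the 2 directions depends on the scaling. The groups did not overlap for the same 4 of the 10 genes, and for 9.44% of all genes tested. The median log2 fold change was 0.02 over the members and 0.002 over all genes tested, and the median size of the change, in either direction, was 0.21 over the members against 0.09 over all genes. The 3 that fell are Gadd45 and Btg genes, and the 1 that rose is a CDK inhibitor gene. The genes were chosen with earlier results of these data known, so these counts are a description of the list.

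**Figure D1:**
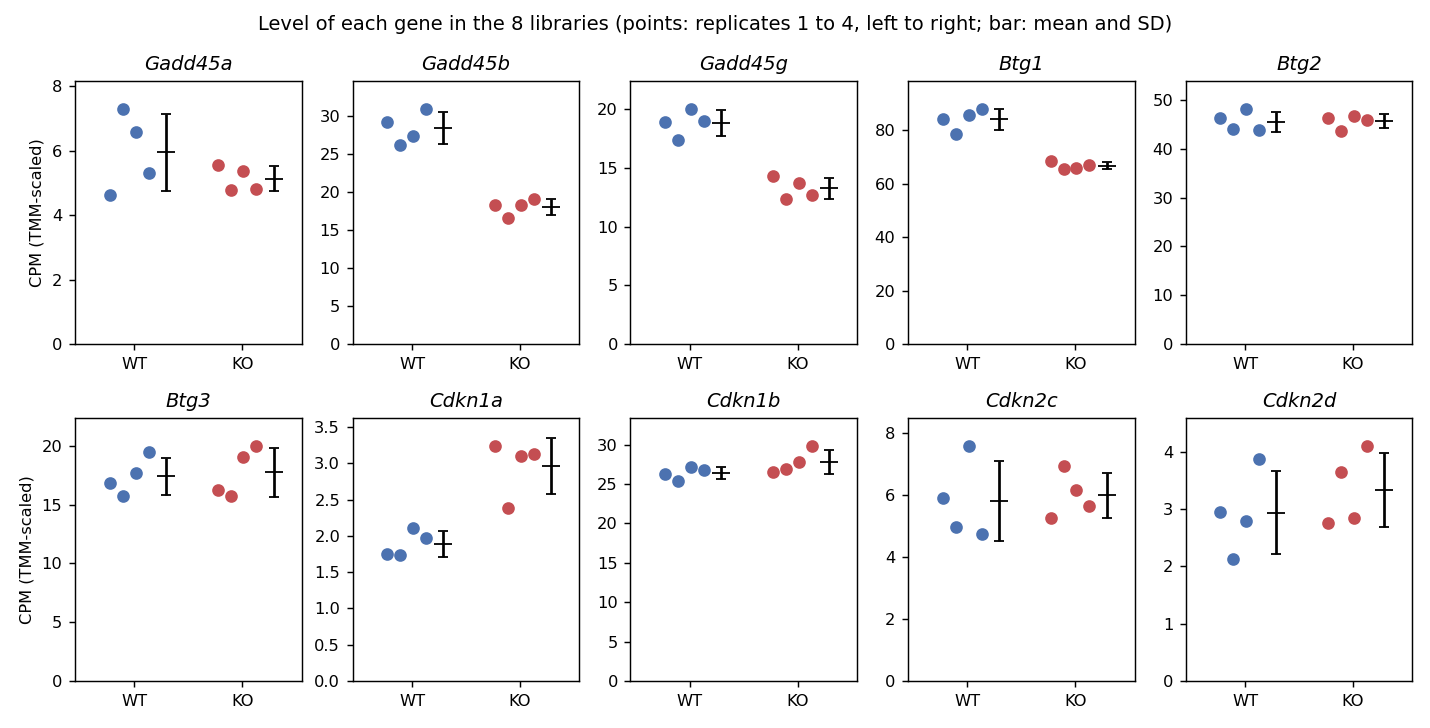
CPM (TMM-scaled, linear axis from 0) of each of the 10 genes in the 4 WT and 4 KO libraries; points are replicates 1 to 4 and the black bar is the mean with its SD. The WT and KO points stand apart for Gadd45b, Gadd45g, Btg1 and Cdkn1a and overlap for the other 6 genes.

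**Figure D2:**
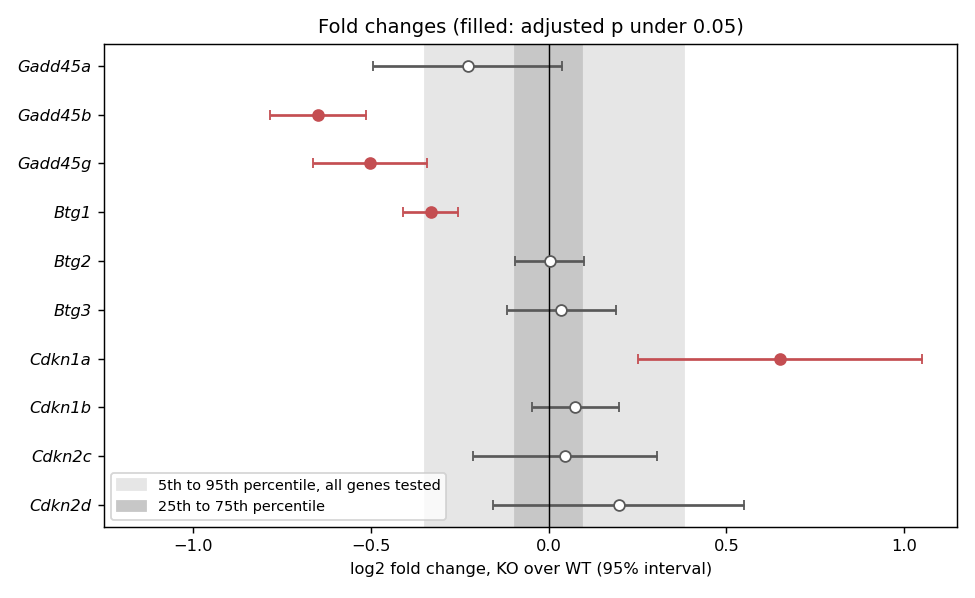
Log2 fold change of each gene, KO over WT, with its 95% interval from edgeR; filled points have an adjusted p under 0.05, and grey bands give the spread over all 23190 genes tested. Gadd45b (-0.65), Gadd45g (-0.50) and Cdkn1a (0.65) lie outside the band from the 5th to the 95th percentile (-0.35 to 0.38), and Btg1 (-0.33) lies just inside it.

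The stretch of 250 bases before the start site is shown for these 4 genes, since 3 of them moved in the same direction and the other moved against them. The sequences are from RefSeq (GRCm38.p6), whose promoter table held all 10 genes, are written 5′ to 3′ along the gene, and end at the base before the RefSeq start. That start can lie inside the gene as the counts table places it. For Gadd45b it is 80930091, and the gene's first base in the counts table is 80930073. Cdkn1a, Btg3 and Cdkn2c each had 2 entries there. For each of them the entry nearest the outermost start of the gene in the counts table was used. The other entry was not searched for these genes. Capitals mark matches, on either strand, to the motifs searched: the cyclic AMP response element TGACGTCA and its core TGACG, AP-1 (TGANTCA), one NF-kB consensus, the CArG box, the p53 decamer, the GC box GGGCGG, the TATA box TATAAA and CCAAT. The core lies within every full cyclic AMP element, and the other motifs were counted independently of overlaps.
Gadd45b (chr10:80929841-80930090, plus strand): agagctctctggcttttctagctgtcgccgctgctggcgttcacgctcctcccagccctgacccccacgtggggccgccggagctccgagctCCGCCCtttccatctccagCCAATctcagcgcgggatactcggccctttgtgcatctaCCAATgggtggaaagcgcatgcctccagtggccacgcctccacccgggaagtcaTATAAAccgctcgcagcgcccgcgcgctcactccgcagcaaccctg
Gadd45g (chr13:51846425-51846674, plus strand): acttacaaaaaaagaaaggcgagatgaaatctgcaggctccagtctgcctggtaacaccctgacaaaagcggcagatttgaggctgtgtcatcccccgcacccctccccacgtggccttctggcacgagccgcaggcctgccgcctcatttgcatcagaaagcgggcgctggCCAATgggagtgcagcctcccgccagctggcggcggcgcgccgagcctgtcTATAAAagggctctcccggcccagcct
Btg1 (chr10:96616751-96617000, plus strand): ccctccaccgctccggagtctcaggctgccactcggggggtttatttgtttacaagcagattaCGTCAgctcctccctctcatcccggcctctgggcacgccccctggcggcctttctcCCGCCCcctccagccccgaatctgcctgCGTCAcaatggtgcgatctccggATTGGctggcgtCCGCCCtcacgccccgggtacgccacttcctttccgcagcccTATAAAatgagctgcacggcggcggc
Cdkn1a (chr17:29090729-29090978, plus strand): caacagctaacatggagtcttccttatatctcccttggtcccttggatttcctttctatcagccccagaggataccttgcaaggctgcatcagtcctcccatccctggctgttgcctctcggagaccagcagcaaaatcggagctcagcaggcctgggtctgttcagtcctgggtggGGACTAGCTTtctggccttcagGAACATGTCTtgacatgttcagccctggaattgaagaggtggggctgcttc
A TATA box stood 46 to 41 bases before the RefSeq start of Gadd45b, 27 to 22 before that of Gadd45g and 26 to 21 before that of Btg1. In the windows used these were the 3 of 10 members with that match, which 12.4% of all 32841 windows of this length held. Whether the unsearched entries of Cdkn1a, Btg3 and Cdkn2c hold one is not known. The match thus cannot set the genes that fell apart from Cdkn1a. The p53 decamer was matched in Cdkn1a, at 73 to 64 and 51 to 42 bases before the start used. It was also matched in Gadd45a and Cdkn2d, so in 3 of 10 members against 7.13% of all windows. The Gadd45a and Cdkn2d matches lie inside those genes as the counts table places them. Their RefSeq starts are 67037407 and 21291209, and the table's outermost bases are 67037457 and 21291407. The whole Cdkn2c window lies inside its gene too. Distances from the start of the other Cdkn1a entry were not measured. Of the other motifs, CCAAT was in 8 of 10 members (33.9% of all windows), the GC box in 7 (32.7%), the core TGACG in 2 (17.8%) and the full TGACGTCA in 1, Btg2 (1.55%). AP-1 (6.75% of all windows), the NF-kB consensus (0.14%) and the CArG box (1.47%) were in none of the 10. The members' windows were 54.0 to 77.2% G and C, against a median of 52.4% over all windows. The shares over all windows were not matched for this. A match describes these letters and not a bound site, and the motifs were chosen with the results known.

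Gadd45b (GRCm38 chr10:80930073-80932204, plus strand) encodes the Gadd45 protein known for its rapid induction by TGF-beta and NF-kB signalling. Its level was 29.1, 26.1, 27.3 and 30.8 CPM in the WT libraries and 18.3, 16.6, 18.2 and 19.0 CPM in the KO libraries, replicates 1 to 4. Every KO library lay below every WT library, with a wide gap between them. The means were 28.3 ± 2.07 and 18.02 ± 1.04 CPM (SD, n = 4), which is 1.57-fold lower with the KO label (log2 fold change -0.65, standard error 0.07, edgeR adjusted p = 7.83e-16). Gadd45b ranked 28th of the 23190 genes by p. In a test against a fold of 1.2 in place of no change it stayed called (adjusted p = 1.46e-06), and it was called in all 19 alternative settings tried.

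Gadd45g (chr13:51846678-51848468, plus strand), the Gadd45 gene that in the mouse also acts upstream of Sry in the fetal testis, had 18.9, 17.3, 20 and 19.0 CPM in the WT libraries and 14.3, 12.4, 13.8 and 12.7 CPM in the KO libraries. The groups did not overlap. Gadd45g fell by 0.50 on the log2 scale, with a standard error of 0.08 (edgeR adjusted p = 4.34e-07), which is 1.42-fold lower. With the mean level of 8 lists of somatic and blood markers as a covariate the change was -0.38 and was not called (edgeR adjusted p = 0.205). That covariate, a mean log2 CPM, was 4.38 to 4.44 in WT and 4.34 to 4.38 in KO libraries, overlapping only in WT replicate 2 and KO replicate 3, so it can hardly be told apart from the label. It also missed the threshold in the test against a fold of 1.2 (adjusted p = 0.0593).

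Gadd45a (chr6:67035096-67037457, minus strand), the p53-responsive Gadd45 gene, was at 4.63, 7.29, 6.58 and 5.32 CPM in the WT libraries and 5.56, 4.78, 5.36 and 4.82 CPM in the KO libraries. The WT libraries spread more widely and took in all the KO values. Its log2 fold change of -0.23 was not called (95% interval -0.49 to 0.04, edgeR adjusted p = 0.433). Its exons overlap those of E230016M11Rik on the opposite strand, which had 93 to 139 counts in a WT library where Gadd45a had 77 to 147. Whether reads were counted by strand is not stated, so reads of this pair cannot be told apart.

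The Gadd45 genes together had a summed level per kilobase of 37.2 ± 1.41 CPM in the WT libraries and 25.6 ± 1.38 in the KO libraries (SD, n = 4). Gadd45b gave 45.3 to 50.3% of that sum in WT libraries and 42.8 to 46.9% in KO libraries. Gadd45g gave 41.8 to 44.9% and 42.3 to 45.4%, so Gadd45b and Gadd45g supplied close to equal parts of the family level under both labels. Gadd45a gave 7.09 to 11.7% and 10.7 to 11.7%. The make-up of the family thus overlapped between the groups while its summed level did not.

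Btg1 (chr10:96617006-96622809, plus strand), an antiproliferative gene of resting cells and the most abundant member by CPM, had 84.3, 78.5, 85.7 and 87.8 CPM in the WT libraries and 68.4, 65.6, 65.8 and 67.1 CPM in the KO libraries. The KO libraries lay close together and all below the WT libraries. The fall was the smallest of the 3 and had the smallest standard error of the 10 genes, with a log2 fold change of -0.33 and a standard error of 0.04 (edgeR adjusted p = 7.49e-13), or 1.26-fold lower. It was called in 18 of the 19 alternative settings and was not called in the test against a fold of 1.2 (adjusted p = 0.668). With the covariate of somatic and blood markers it was -0.30 (adjusted p = 0.00272). The copies Btg1-ps1 and Btg1-ps2 had 0 to 4 counts in a library.

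Btg2 (chr1:134075170-134079120, minus strand), an immediate-early and p53-responsive gene, had 46.2, 43.9, 48.1 and 43.7 CPM in the WT libraries and 46.2, 43.5, 46.7 and 45.8 CPM in the KO libraries. The groups overlapped almost fully. Its log2 fold change was 0.004 (-0.01 with library totals alone), with a 95% interval of -0.09 to 0.10 that leaves out a fall of the size seen for Btg1 (edgeR adjusted p = 0.986). The Btg1 share of the family level per kilobase was 42.6 to 44.5% in WT libraries and 36.4 to 38.6% in KO libraries, while that of Btg2 was 42.6 to 46.0% and 48.5 to 49.8%. Btg2 had the larger share in 3 of 4 WT libraries and in all 4 KO libraries, and neither gene's shares overlapped between the groups.

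Btg3 (chr16:78332637-78377192, minus strand), which encodes a BTG protein that binds the transcription factor E2F1, was at 16.8, 15.7, 17.7 and 19.4 CPM in the WT libraries and 16.2, 15.7, 19.1 and 19.99 CPM in the KO libraries. The groups overlapped, and the log2 fold change of 0.04 was not called (95% interval -0.12 to 0.19, edgeR adjusted p = 0.893). Its exons overlap those of Cxadr on the opposite strand, so its reads carry the same uncertainty as those of Gadd45a.

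Cdkn1a (chr17:29090976-29100727, plus strand), the p21 gene and best known p53 target, was the member with the fewest reads. It had 29, 35, 40 and 34 counts in the WT libraries and 53, 40, 59 and 61 counts in the KO libraries, or 1.75, 1.73, 2.11 and 1.97 CPM against 3.24, 2.39, 3.10 and 3.13 CPM. Every KO library lay above every WT library, KO replicate 2 by the least. The log2 fold change was 0.65 with a standard error of 0.20 and a 95% interval of 0.25 to 1.05 (edgeR adjusted p = 0.0335), or 1.57-fold higher. This call was fragile: it was lost in 11 of the 19 alternative settings, with DESeq2 (adjusted p = 0.124), limma voom (0.0592), no filter on low counts (0.0590), the covariate (0.460) and the fold of 1.2 (0.525). Leaving out 1 library at a time, it was lost in 6 of 8 cases, without any 1 of WT replicates 1, 2 and 4 and KO replicates 1, 3 and 4, with adjusted p from 0.0243 to 0.0972 over the 8. The direction was the same in all 19, with log2 fold changes of 0.61 to 0.74. Its exons also overlap those of AC167363.2 on the opposite strand, which had 2 to 12 counts in a library, so reads of this pair too cannot be told apart.

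Cdkn1b (chr6:134920401-134925513, plus strand), the p27 gene, made up most of the Cip/Kip level. It had 26.2, 25.4, 27.2 and 26.8 CPM in the WT libraries and 26.5, 26.95, 27.8 and 29.8 CPM in the KO libraries. The groups overlapped and the change was small: 0.08 on the log2 scale, with a 95% interval of -0.05 to 0.20 (edgeR adjusted p = 0.634). The Cdkn1a share of the level per kilobase of both genes was 7.85 to 9.02% in WT libraries and 10.2 to 13.6% in KO libraries. Cdkn1b thus gave 86.4% or more of it in every library.

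The INK4 genes Cdkn2c and Cdkn2d were low and varied between replicates. Cdkn2c (chr4:109660876-109667189, minus strand) had 5.90, 4.96, 7.58 and 4.74 CPM in the WT libraries and 5.26, 6.93, 6.14 and 5.64 CPM in the KO libraries, a log2 fold change of 0.05 (95% interval -0.21 to 0.31, edgeR adjusted p = 0.921). Cdkn2d (chr9:21288410-21291407, minus strand) had 2.95, 2.13, 2.79 and 3.88 CPM against 2.75, 3.65, 2.84 and 4.10 CPM, a log2 fold change of 0.20 (-0.16 to 0.55, edgeR adjusted p = 0.679). Both pairs of groups overlapped. Cdkn2d had 43 to 80 counts in a library, and its interval still takes in changes as large as that of Btg1 but upward. Between replicates of WT libraries the coefficient of variation was 22.3% for Cdkn2c and 24.5% for Cdkn2d, against 2.91% for Cdkn1b and 4.76% for Btg1.

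Levels of different genes were compared per kilobase of exon. In the WT libraries the order of mean level was Gadd45b (17.8 CPM per kilobase), Btg2 (16.6), Gadd45g (16.03), Btg1 (15.9), Cdkn1b (5.80), Btg3 (4.34), Gadd45a (3.38), Cdkn2c (2.16), Cdkn2d (1.87) and Cdkn1a (0.531). The first 4 overlapped with their neighbours, and all their libraries lay above those of Cdkn1b. Cdkn1b and Btg3 stood apart, as did Cdkn2d and Cdkn1a, while Btg3, Gadd45a, Cdkn2c and Cdkn2d each overlapped with the next of these. In the KO libraries Btg2 came first (16.6), apart from Btg1 (12.6), which stood apart from Gadd45b (11.3). Gadd45g (11.3) overlapped with Gadd45b, and the order of the other 6 was as in the WT libraries, though among them only Cdkn2c and Cdkn2d overlapped with the KO label.

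**Figure D3:**
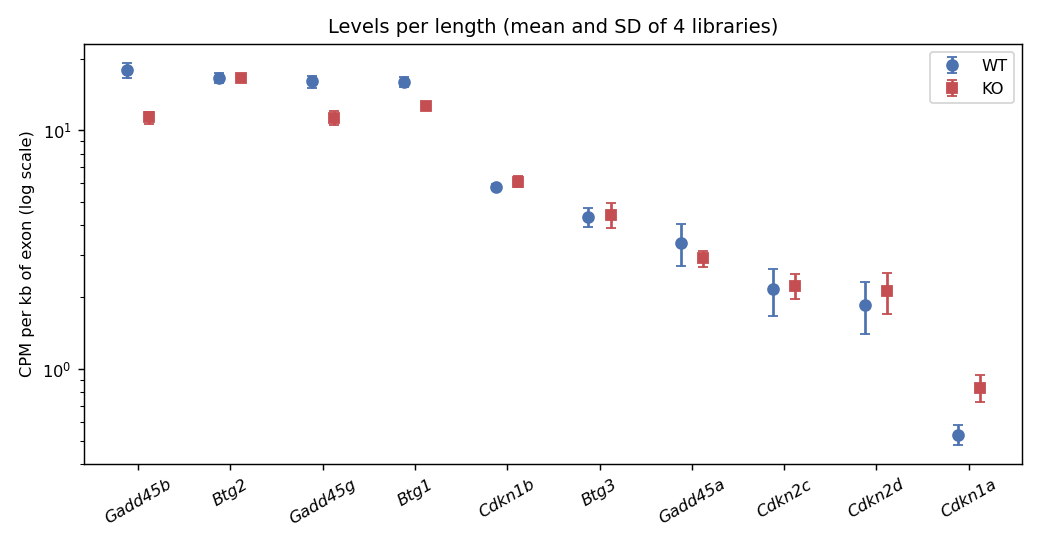
Mean level and SD of each gene in CPM per kilobase of exon, on a log axis, in 4 WT and 4 KO libraries, ordered by the WT mean. With the WT label 4 genes lie between 15.9 and 17.8; with the KO label Btg2 stays at 16.6 while Gadd45b, Gadd45g and Btg1 lie at 11.3 to 12.6.

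Genes around the members were read from 9 lists of partners, relatives, regulators and targets, of which 124 genes were tested; the lists, like the members, were chosen with results known. Of these 6 rose and 11 fell, 13.7% against 5.14% of all genes tested; none of the 124 was called in the test against a fold of 1.2. Among the relatives of the BTG proteins and their CCR4-NOT partners, 2 of 16 fell, none rose and 14 did not pass (list median -0.02). One was Tob1, which encodes a BTG-family antiproliferative protein, at 43.5, 48.0, 49.0 and 45.7 CPM with the WT label and 38.6, 38.01, 36.3 and 36.0 CPM with the KO label. These groups did not overlap (log2 fold change -0.33, edgeR adjusted p = 1.75e-07), a change of about the size of that of Btg1. The other was Pabpc1, the poly(A)-binding protein gene (-0.09, adjusted p = 0.00471; 0.0787 without WT replicate 4 and 0.0776 without KO replicate 2).

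Genes that the CDK inhibitors act on or through mostly did not pass. Of 9 G1 cyclin and kinase genes tested 1 rose and none fell (list median 0.05). That was Ccnd1, which encodes cyclin D1, at 5.79 ± 1.05 CPM in WT and 7.61 ± 1.26 CPM in KO libraries (SD, n = 4). Its log2 fold change was 0.40 by edgeR (adjusted p = 0.0335). Its groups overlapped and its call was lost with DESeq2 (0.207), limma voom (0.128), no filter on low counts (0.0520), a fit that was not robust (0.0519) and without any 1 of 6 libraries (WT replicates 2, 3 and 4, KO replicates 1, 2 and 4; 0.0571 to 0.281). None of 13 pocket protein and E2F genes was called by edgeR, DESeq2 or limma voom (0 with an unadjusted p under 0.05; list median 0.04). E2f7, an E2F repressor, and Rbl2, which encodes the pocket protein p130, came nearest (adjusted p = 0.365 and 0.430). None of the other 3 CDK inhibitors tested was called by edgeR, DESeq2 or limma voom (0 with an unadjusted p under 0.05; list median -0.02). Among them Cdkn1c, the imprinted p57 gene, was at 40.9 ± 1.76 and 40.4 ± 1.13 CPM, Cdkn2a at 1.12 ± 0.119 and 0.910 ± 0.324, and Cdkn2b at 1.29 ± 0.628 and 1.45 ± 0.342 (SD, n = 4; edgeR adjusted p = 0.922, 0.767 and 0.865).

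None of 18 proliferation genes was called by edgeR, though 3 of them had an unadjusted p under 0.05 (list median -0.004). Mki67, the gene of the Ki-67 antigen of dividing cells, was at 899 ± 7.55 CPM in WT and 929 ± 6.31 CPM in KO libraries (SD, n = 4), a log2 fold change of 0.05 (edgeR adjusted p = 0.136). DESeq2 (0.0400) and limma voom (0.00471) each called it, and no other gene of the list. Cdc20, an activator of the anaphase-promoting complex, had -0.19 (adjusted p = 0.0608). It was called with library totals alone (0.0339) and without KO replicate 2 (0.0323). Of 17 regulators of p21 and p27 tested, Mdm4, which encodes an inhibitor of p53, rose by 0.12 (adjusted p = 0.000593), Skp1a, a ubiquitin ligase subunit gene, fell by 0.13 (0.0157) and 15 did not pass (list median -0.04). The Skp1a call was lost without WT replicate 3 (0.0841) or KO replicates 1 (0.0765) or 4 (0.0505). Of 11 genes of Gadd45 partners and of kinases of the p38 and JNK pathways 1 fell, Pcna (-0.17, adjusted p = 0.0257), and 10 did not pass (list median 0.007). Its call was lost with DESeq2 (0.130), limma voom (0.0682) and without WT replicate 2 (0.135) or KO replicates 2 (0.185) or 4 (0.153).

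Some members are also known as immediate-early or p53-responsive genes. Of 23 immediate-early genes tested 3 rose and 6 fell by edgeR (list median -0.08), and 14 did not pass. With DESeq2, and also with limma voom, 2 rose and 4 fell. The falls included Ier5 (-0.41, adjusted p = 1.11e-11), a stress-response gene, Ccn1 (-0.25, 2.49e-07), which encodes a matrix-associated growth regulator, and Ier2 (-0.23, 0.000392). The rises included Fosb (0.14, 1.04e-06) and Fos (0.12, 0.000897), which encode AP-1 subunits, so the list did not move in 1 direction. Rhob, a small GTPase gene, fell by 0.15 (0.0163). That call was lost with DESeq2 (0.0761), limma voom (0.0697) and without WT replicates 1 (0.0933) or 2 (0.106) or KO replicate 1 (0.0775). Of 14 other p53 targets Plk2, a stress-induced kinase gene, fell by 0.29 (adjusted p = 4.59e-06), Pmaip1, which encodes the cell-death protein NOXA, rose by 0.41 (0.00303), and 12 did not pass (list median -0.18). The list median was thus below 0 while Cdkn1a was higher with the KO label.

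**Figure D4:**
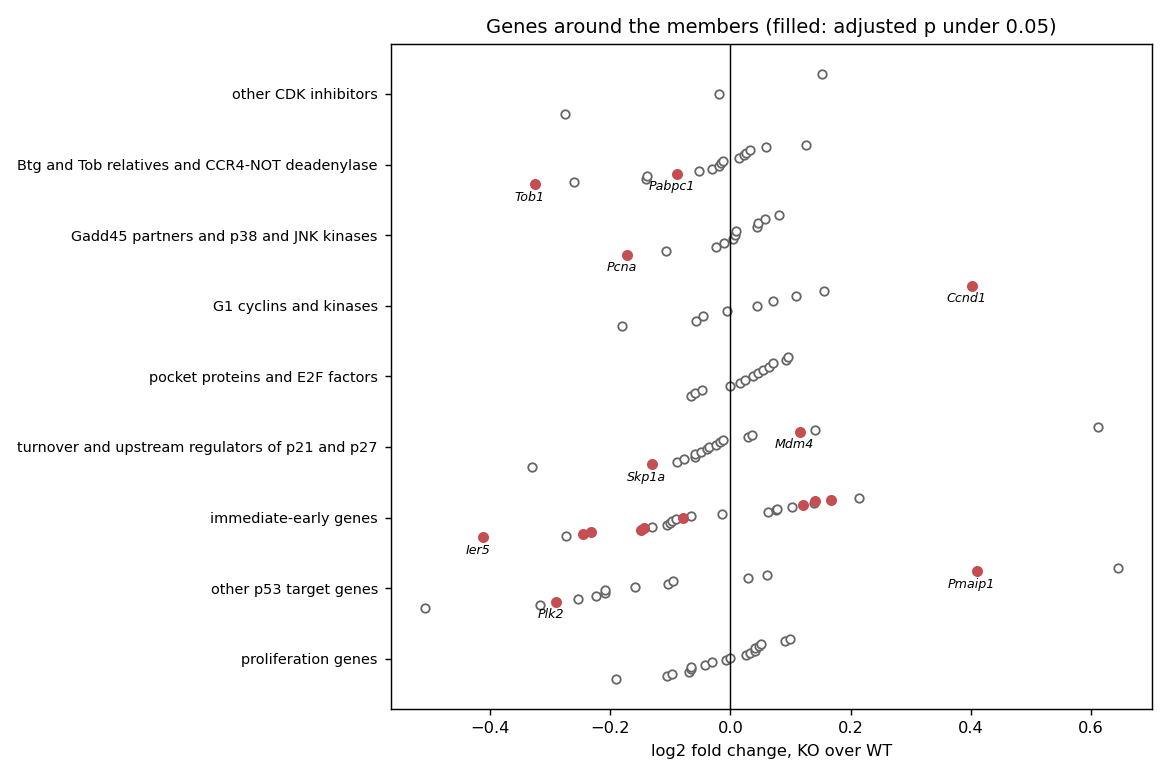
Log2 fold change, KO over WT, of the 124 tested genes of 9 lists around the members; filled points have an adjusted p under 0.05, 6 above 0 and 11 below, and are named except for most immediate-early genes. Calls are most frequent among the immediate-early genes, where 3 lie above 0 and 6 below.

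Marker lists of several cell types moved with the label. The summed level was 2868 to 2902 CPM with the WT label and 2607 to 2650 with the KO label for 6 Leydig markers (4 fell, none rose). It was 225 to 239 against 94.0 to 98.7 CPM for 8 erythroid markers (5 fell), 149 to 156 against 79.3 to 83.7 for 8 of striated muscle (2 of 7 tested fell) and 16.5 to 19.5 against 12.8 to 14.6 for 8 of macrophages and leukocytes (1 of 5 tested fell). It was 33.5 to 37.2 against 71.5 to 80.3 CPM for 8 markers of tubular and duct epithelium (all 8 rose) and 183 to 197 against 208 to 215 CPM for 7 of endothelium (2 rose, or 1 with DESeq2 or limma voom). Sums overlapped for 7 Sertoli markers (530 to 556 and 525 to 545 CPM; none called by edgeR, DESeq2 or limma voom, 2 with an unadjusted p under 0.05). They also overlapped for 7 germ-cell markers (106 to 118 and 115 to 123 CPM; 2 rose). For 8 interstitial and peritubular markers they were 8035 to 8146 and 7813 to 8032 CPM (none called by edgeR or DESeq2, 1 by limma voom, Col3a1; 1 with an unadjusted p under 0.05). These sums narrowly did not overlap and were lower with the KO label. The muscle sum was carried by Ttn, which encodes the giant sarcomere protein titin, at 125 CPM in WT and 57.5 CPM in KO libraries on average; Nrap also fell, and the other 5 tested were not called. No marker was at 0 in any library. With the mean of the 8 somatic and blood lists as a covariate in the edgeR test, Gadd45b (-0.59, adjusted p = 0.00025) and Btg1 kept their calls and Gadd45g and Cdkn1a did not, while 196 genes were called in all. Of the named genes in the lists around the members, Tob1 (-0.40, adjusted p = 0.00174), Ier5, Ccn1 (0.0384) and Plk2 (0.00135) kept their calls with it and the others lost theirs. Some of these lists rose and others fell, so opposite changes can cancel in the mean used as the covariate. A call kept with it therefore does not test the part of any 1 cell type. The part of these lists in the members' changes was not tested.

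**Figure D5:**
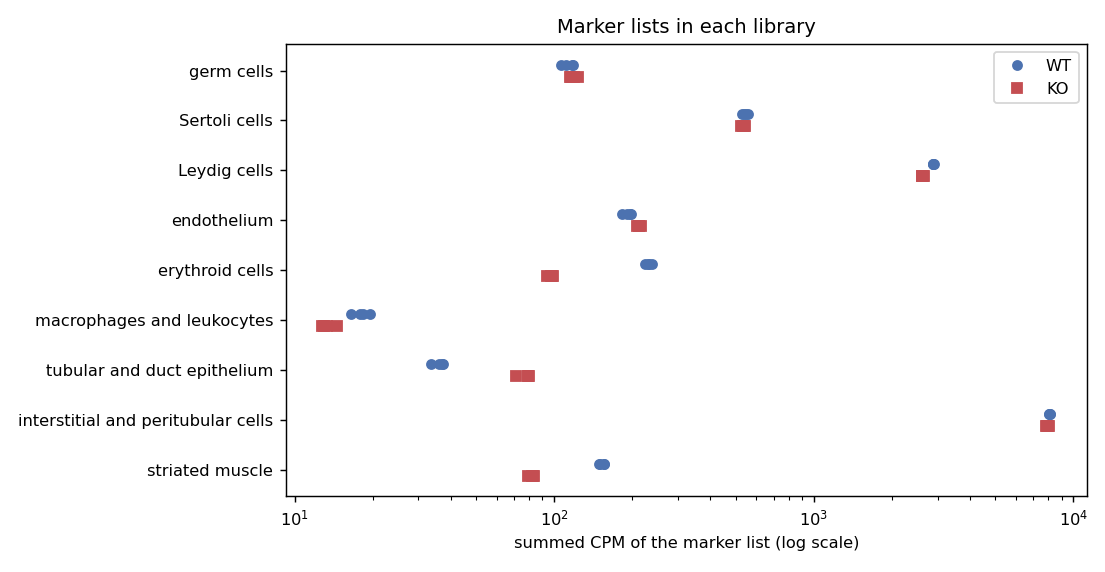
Summed CPM of each marker list in every library, on a log axis, with 4 WT and 4 KO points per list. The germ-cell list (106 to 123 CPM) lies below the Leydig (2607 to 2902 CPM) and interstitial (7813 to 8146 CPM) lists, and the erythroid, muscle and epithelial lists separate the groups most, the muscle list through Ttn.

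For each of the 4 called members the 3 genes with the most similar pattern were found by Pearson's r of log2 CPM over the 8 libraries, among 13116 genes. These libraries include both groups, so the shift between them enters r, which is given as a description. Gadd45b was most like Clu (0.993), which encodes the secreted chaperone clusterin, Txnip (0.989), which encodes a thioredoxin inhibitor, and Mid1 (0.984), a ubiquitin ligase gene. Btg1 was most like Rps27a (0.996), a ribosomal fusion gene of ubiquitin, Clu (0.992) and Timp3 (0.989), a metalloproteinase inhibitor gene, so that Clu was shared with Gadd45b. Gadd45g was most like Tex15 (0.991), a germ-cell gene of retrotransposon silencing, Ddx5 (0.989), an RNA helicase gene, and Me1 (0.984), the malic enzyme gene. Cdkn1a was most like Rimklb (0.975), Adcy8 (0.962), an adenylyl cyclase gene, and Col14a1 (0.956), a collagen gene.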

How the data were processed

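The deposited values were raw counts of reads per gene, made by the authors from libraries of the SMARTer stranded total RNA pico kit, per the labels' protocols. The submitters' processing notes name GRCm38, DESeq2, featureCounts, Subread and STAR 2.5.2b without saying which did what; use of strand and treatment of reads with several positions are not stated. Levels per kilobase used the exon length that the deposited table gives per gene. Of 55487 IDs 55141 had a symbol in GENCODE M21, and 99.42% of these had identical positions. Counts were tested in R 4.3.3 with edgeR 4.0.16: filterByExpr, TMM, robust quasi-likelihood test, two-sided, Benjamini-Hochberg over all 23190 genes, called at an adjusted p under 0.05. Log2 CPM used a prior count of 2. Standard errors and 95% intervals come from the F statistic. Intervals and depth cover counting error and the spread between these libraries, which held 16346977 to 20311338 counts; molecular identifiers are not mentioned, so reads may repeat molecules. Replicate pairs differed by more than sampling noise (chi-squared per degree of freedom 1.68 to 3.60).

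The members, lists and motifs were chosen with earlier results of these data known. Named genes were the members, up to 6 called genes per list (or the 2 with the smallest p where none was called), the 3 genes most like each called member among named loci whose mean log2 CPM reached 1, and Rhox10; Cdkn1c, Col3a1, Ttn and Nrap were named after their values were seen. Alternatives were other scalings and filters, DESeq2 1.42.0, limma 3.58.1 voom with sample weights, a fit that was not robust, the replicate number as a block, a covariate of somatic and blood markers, each library left out, and, added after seeing the data, a test against a fold of 1.2.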

Additional observations from a re-analysis of the deposited data

Results flagged for a closer look

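In 4 of 84 groups of 4 libraries, those of 42 named genes under each label, 1 library stood far from the other 3 by the spread of the group (Dixon's test; chance flags about 1 in 20 groups). Cdkn1a was at 2.39 CPM in KO replicate 2 against 3.10 to 3.24 in the other KO libraries, and still above every WT library. The same library was low for Rimklb, at 34.7 CPM against 38.9 to 39.5, which is among the genes most like Cdkn1a. E2f7 was high in it, at 45.1 CPM against 42.1 to 42.3. Tex15 was low in WT replicate 2, at 88.8 CPM against 92.8 to 93.5. Without KO replicate 2 Cdkn1a had its lowest adjusted p of the libraries left out in turn (0.0243).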

How the results depend on the processing

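Over 19 alternative settings and 42 named genes, 702 of 797 values stayed on their side of the threshold, 91 lost a call, 4 gained one, and no called value changed sign. Of the 702, 13 changed sign without a call in either fit (Btg2, Btg3, Cdkn2a, Cdkn2b and Cdkn2c). The 1193 genes called by the edgeR test became 731 with DESeq2, 196 with the covariate of somatic and blood markers and 134 in the test against a fold of 1.2, which by construction asks for larger changes; the covariate nearly tracks the label (4.38 to 4.44 in WT, 4.34 to 4.38 in KO libraries), so a call lost with it does not show a smaller change; the cause of the DESeq2 drop was not tested. The 4 members called became 2 with the covariate (Gadd45b and Btg1) and 1 with the fold of 1.2 (Gadd45b). With 1 library left out, 898 to 1040 genes and 3 to 4 members were called. With the replicate number as a block, 1249 genes and 4 members were called; it changed no call of a named gene, and same-numbered libraries did not deviate together (r from -0.01 to 0.02). Such correlations cannot tell whether equal numbers mark a shared litter or preparation. Members called in the other settings numbered 3 to 4. No member that missed the threshold passed it in any setting. Depth limits Cdkn1a and Cdkn2d most.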
